A study of Homo sapiens with 30 samples.

Results

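The 9 genes described here encode ligands of receptors on natural killer (NK) cells: MICA, MICB, ULBP1, ULBP2, ULBP3, NCR3LG1, PVR, NECTIN2 and CLEC2D. They were chosen by symbol from the 61471 rows of the deposited tables, and each has a row in both tables. Their RNA was measured in U87 and U251, 2 human glioblastoma cell lines without a genetic change, in cells without IFN-γ (Untreated), after 3, 14 and 28 days of IFN-γ (D3, D14 and D28), and at day 28 when IFN-γ had been withdrawn after day 14 (D28WO, the washout). The sample labels give a dose of 1 µg/mL and place the Untreated cells at day 3, whereas the study's methods name another dose and place them at the start of the exposure. With either, no Untreated cells were collected at day 14 or 28. Comparisons of D14, D28 and D28WO with Untreated therefore also span time in culture. It cannot be told apart from IFN-γ or its withdrawal, and rises and falls below are meant in this sense. Replicates are independent cultures according to the study. Its methods divide the cultures of day 14 between continued IFN-γ and the washout, so D28 and D28WO libraries may come from the same cultures. Mix-ups are a known hazard with both lines, and the study did not retest their identity. Of the U87 libraries, 13 were used, with n = 2 at D3, n = 2 at D14 and n = 3 in the other groups, because 2 columns carry the same name and could not be assigned. All 15 U251 libraries were used, 3 in each group.

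NK cells kill when signals from activating receptors outweigh those from inhibitory receptors. The receptor NKG2D binds MICA, MICB and the ULBP proteins, relatives of HLA class I that cells display after damage, infection or transformation. NKp30 binds B7-H6, the product of NCR3LG1, and DNAM-1 binds CD155 (PVR) and CD112 (NECTIN2), for which the inhibitory receptor TIGIT competes. LLT1, the product of CLEC2D, binds the inhibitory receptor NKR-P1A (CD161). IFN-γ is a main cytokine of activated NK cells, and it raises HLA class I, which engages inhibitory receptors. The tables hold RNA only, and surface protein and shed ligand were not measured.

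The study states a minimum sequencing depth, but TPM values keep none, so the depth of each library is unknown. Genes listed above 0 numbered 24223 to 28649 per library in U87 and 24450 to 30246 in U251. A panel of 6 genes known to respond to IFN-γ (IRF1, GBP1, GBP2, TAP1, PSMB9 and B2M) was read before the ligands. All 6 were higher than in Untreated cells at D3, D28 and D28WO in both lines, and 5 of 6 were higher at D14 in U251. In the U87 libraries labelled D14, limma called 0 of 6, and 0 of 6 had an unadjusted p under 0.05. The level of GBP1, an interferon-induced GTPase, was 31.7 to 36.6 TPM in these D14 libraries, 31.3 to 39.6 TPM in Untreated and 209 to 240.2 TPM at D3. In U251 it was 141 to 156 TPM at D14, above the 44.4 to 49.9 TPM of Untreated and below the 413 to 487 TPM of D3. In the libraries labelled D28WO it was 213 to 232 TPM in U87 and 460.1 to 471 TPM in U251, beside 244 to 256 TPM and 456 to 501 TPM at D28. The GBP1 libraries of the U87 washout thus lay below those of D28 without overlap. Against Untreated, the median log2 fold change of the panel was 1.86 at D28WO and 1.75 at D28 in U87, and 2.09 and 1.87 in U251. As a panel, the response genes of the washout libraries stayed near the levels of continuous exposure in both lines, though single genes could differ. The cause of this and of the D14 values of U87 was not tested, and the groups are named by their labels. Of 9 glioma markers, 8 had a mean of at least 1 TPM in each line, the exceptions being SOX2 in U87 and OLIG2 in U251. Their sum was 2778 to 3402 TPM in U87, and in U251 it was 4119 to 4201 TPM in Untreated, 2114 to 2607 TPM at D3, 3013 to 3399 TPM at D14, 2289 to 2541 TPM at D28 and 2763 to 2884 TPM at D28WO. Markers of NK and T cells summed to 3.31 to 15.8 TPM per library in U87 and to 0.372 to 7.30 TPM in U251. Of 5 tested in U87, 1, 1, 1 and 2 were called higher than Untreated at D3, D14, D28 and D28WO. The shares of all genes were 12.4%, 4.14%, 17.2% and 28.6%. With quantile normalization 0, 1, 0 and 0 were higher and 1, 0, 0 and 1 lower. In U251 3 were tested and 0 were called at any time. The common leukocyte marker PTPRC did not pass 1.47 TPM in any library used. A list of 7 leukocyte markers summed to 232 to 269 TPM at D28WO and 317 to 489 TPM in the other groups of U87. In U251 the sum was 86.5 to 177 TPM. Most of it was CD68 in both lines, a lysosomal protein that tumour cells can also express. A list of 6 endothelial, epithelial and neuronal markers summed to 43.2 to 55.9 TPM at D28WO and 81.5 to 124 TPM in the other groups of U87. In U251 it was 31.9 to 37.2 TPM in Untreated, 5.76 to 9.44 TPM at D3, 21.3 to 31.5 TPM at D14, 12.8 to 18.7 TPM at D28 and 7.04 to 8.18 TPM at D28WO. The part of these markers in the ligand results was not tested.

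MICA and MICB are close relatives whose RNA moved differently, so their promoters are shown together, as the 250 bases before the RefSeq start on the plus strand of GRCh38.p14. The window of MICA is chr6:31403345-31403594 and that of MICB is chr6:31497895-31498144, with a match to GAANNTTC, a pair of heat shock elements, in capitals.
MICA: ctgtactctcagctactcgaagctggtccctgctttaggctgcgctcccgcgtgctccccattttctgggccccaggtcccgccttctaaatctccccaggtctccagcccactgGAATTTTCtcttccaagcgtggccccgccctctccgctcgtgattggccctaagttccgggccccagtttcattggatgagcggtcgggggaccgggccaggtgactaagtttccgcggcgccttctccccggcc
MICB: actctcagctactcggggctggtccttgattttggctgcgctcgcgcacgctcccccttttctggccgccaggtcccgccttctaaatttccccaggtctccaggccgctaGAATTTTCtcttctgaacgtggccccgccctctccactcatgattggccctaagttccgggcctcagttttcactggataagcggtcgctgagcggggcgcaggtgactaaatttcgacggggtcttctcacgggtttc
The windows were identical at 210 of 254 aligned positions (82.7%), against 40.5% to 56% for the other pairs of ligands. The heat shock pair began at position -135 in MICA and at -139 in MICB. It was found in neither strand of the other 7 windows and in 5.78% of the 35116 promoters of the RefSeq set. Neither TTCNNNGAA, the letters of an interferon-γ-activated site (GAS, 6.57% of promoters), nor GAAANNGAA, a core of the interferon-stimulated response element (6.88%), was found in any of the 9 windows. The GC box GGGCGG (42.6% of promoters) was present in all but that of PVR. A longer annotated form of the gene begins upstream of the window for MICA, MICB and CLEC2D, and sites outside the 250 bases were not searched.

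Levels can be compared between genes because TPM is scaled by length. In Untreated U87 cells, PVR (121 ± 10.8 TPM, SD, n = 3) and NECTIN2 (119.8 ± 11.7 TPM) were the most abundant of the 9 and their libraries overlapped. MICA followed at 91.1 ± 11.5 TPM and ULBP2 at 51.0 ± 5.36 TPM, each apart from its neighbours. ULBP3, MICB, ULBP1 and CLEC2D lay between 9.64 and 19.1 TPM, with overlapping libraries from each to the next, and NCR3LG1 was lowest at 4.92 ± 0.205 TPM. In Untreated U251 cells NECTIN2 (179.5 ± 7.01 TPM) lay above PVR (149 ± 2.95 TPM), then MICA (113 ± 2.499 TPM), ULBP2 (47.7 ± 4.08 TPM) and ULBP3 (26.8 ± 2.25 TPM), none of which overlapped its neighbour. MICB (11.7 ± 1.83 TPM) and CLEC2D (9.25 ± 2.65 TPM) overlapped each other. NCR3LG1 was at 0.749 ± 0.285 TPM and ULBP1 at 0.386 ± 0.0604 TPM. The lines share much of this order, and ULBP1 is the ligand with the largest ratio between them, although no test was made between lines and NECTIN2 had the largest difference in TPM.

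**Figure D1:**
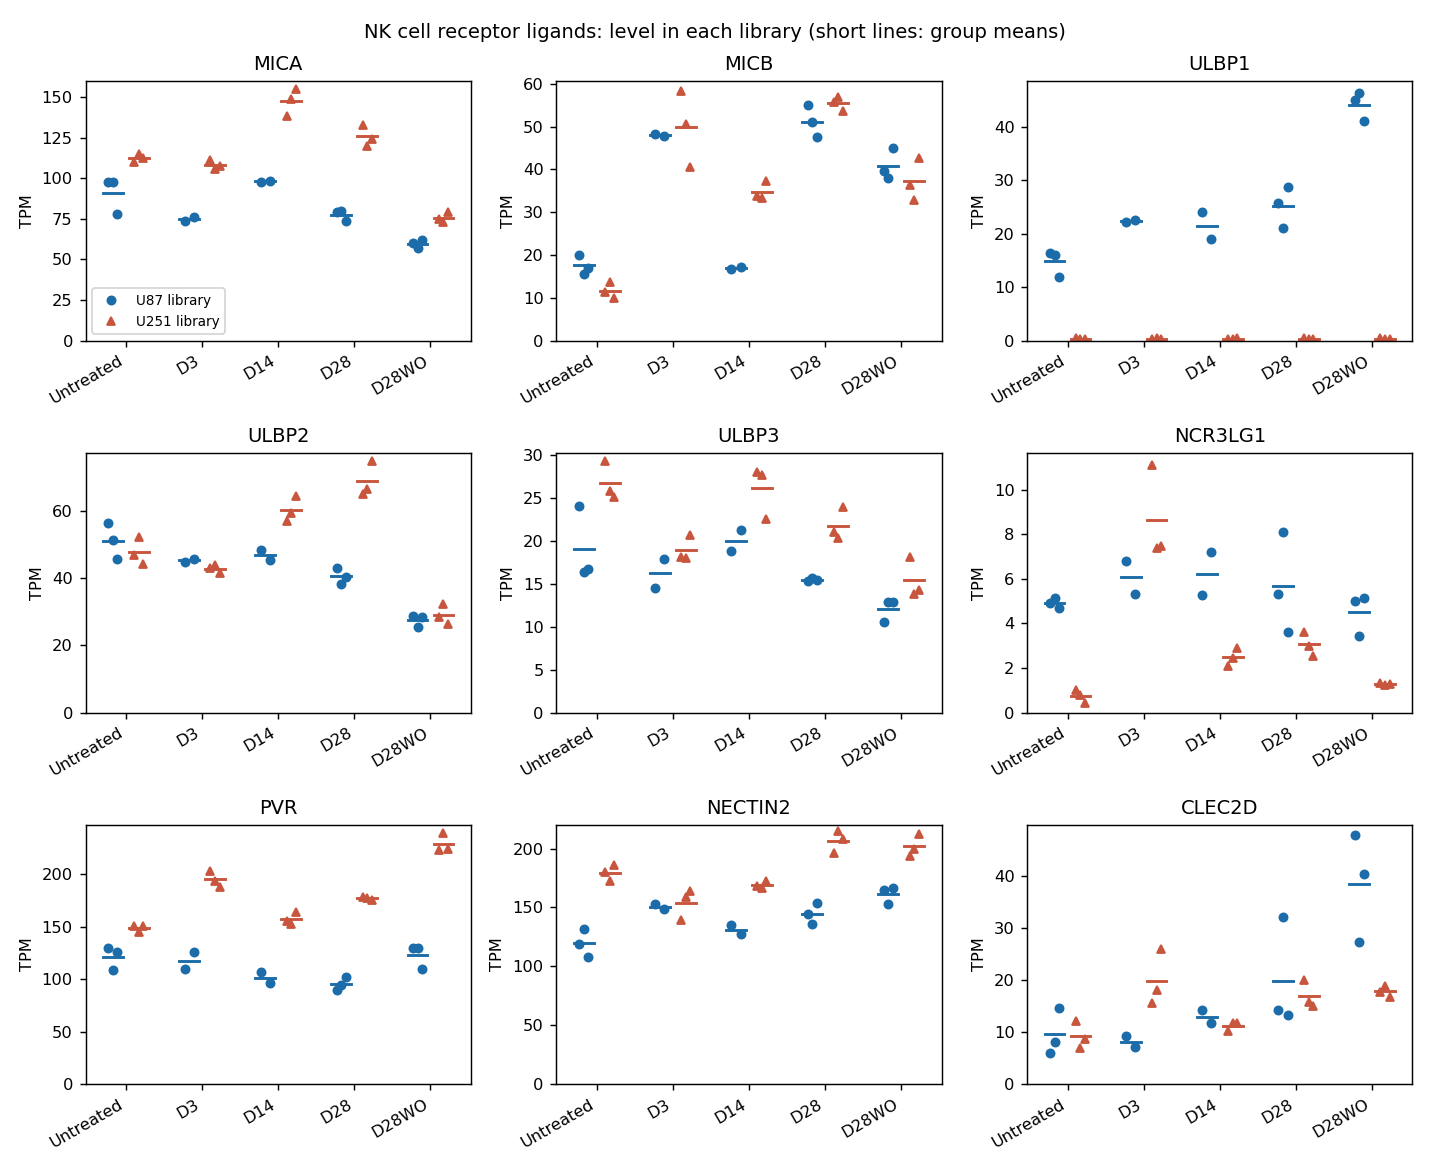
Level of each ligand in every library, in TPM on a linear axis from 0, by group, with U87 as circles, U251 as triangles and short lines at the group means. MICB lies at 40.6 to 58.2 TPM in all D3 and D28 libraries and at 10.0 to 20.1 TPM in all Untreated ones, while ULBP1 does not pass 0.521 TPM in any U251 library.

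Changes were tested with limma on log2(TPM + 1) across the genes that averaged 0.5 TPM or more in a line, with Benjamini-Hochberg adjusted p-values, and a log2FC below is on that scale. ULBP1 fell under this level in U251 and was not tested there, which leaves 9 ligands tested in U87 and 8 in U251. In U87 at D3, 3 ligands were higher, beside 12.4% of all genes tested, 0 were lower (4.28% of genes; 1 at an unadjusted p under 0.05), and 1 passed the added limit of an absolute log2FC over 1 (6.23%). At D14 limma called 0 higher (4.14%) and 0 lower (1.02%), with 1 in each direction at an unadjusted p under 0.05, and 0 passed both limits (2.1%). At D28, 3 were higher (17.2%), 2 lower (6.55%) and 1 past both limits (7.38%). At D28WO, 4 were higher (28.6%), 3 lower (13.4%) and 3 past both limits (14.9%). The smaller U87 counts rested on single libraries: in all, 3 ligands were called at D3 and 1 without D3 replicate 2 or without D3 replicate 3, and 5 were called at D28 and 2 without Untreated replicate 1 or 3 without any 1 of the D28 replicates. At D28, 2 ligands passed both limits without Untreated replicate 3. The balance of directions also depended on scaling. At D3 it was 1 higher and 2 lower with median-ratio size factors and 2 higher and 2 lower with quantile normalization, and at D28 it was 2 higher with either and 3 or 4 lower. At D28WO median-ratio size factors gave 3 higher and 3 lower, and quantile normalization gave 4 higher and 4 lower.

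In U251 at D3, 4 of the 8 ligands were higher (24.9% of all genes tested), 2 lower (16%) and 3 past both limits (14.3%). At D14, 4 were higher (13.8%), 0 lower (7.31%; 0 at an unadjusted p under 0.05) and 2 past both limits (5.76%). At D28, 7 were higher (25.9%), 0 lower (14.7%; 1 at an unadjusted p under 0.05) and 2 past both limits (15.2%). At D28WO, 3 were higher (14.3%), 3 lower (13.4%) and 1 past both limits (7.45%), or 2 past both without Untreated replicate 1. At D14, 1 passed both limits without Untreated replicate 3 or without D14 replicate 3. With median-ratio size factors the D28 counts of U251 were 4 higher and 1 lower and with quantile normalization 6 higher and 1 lower, at D14 3 were higher with either, and at D3 median-ratio size factors gave 4 higher and 3 lower. The median log2FC of all genes against Untreated was 0.15 to 0.25 in U87 and 0.02 to 0.16 in U251. Median-ratio or quantile scaling brought it to between -0.03 and 0.06, and the source of the shift was not tested. For called changes against Untreated under 0.4 in size, the value relative to the median of all genes is therefore given as well. The median log2FC of the tested ligands in U87 was -0.04 (D3), 0.11 (D14), 0.12 (D28) and 0.02 (D28WO), under that of all genes at each time. In U251 it was 0.16, 0.31, 0.38 and 0.28 in the same order, above that of all genes at each time.

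**Figure D2:**
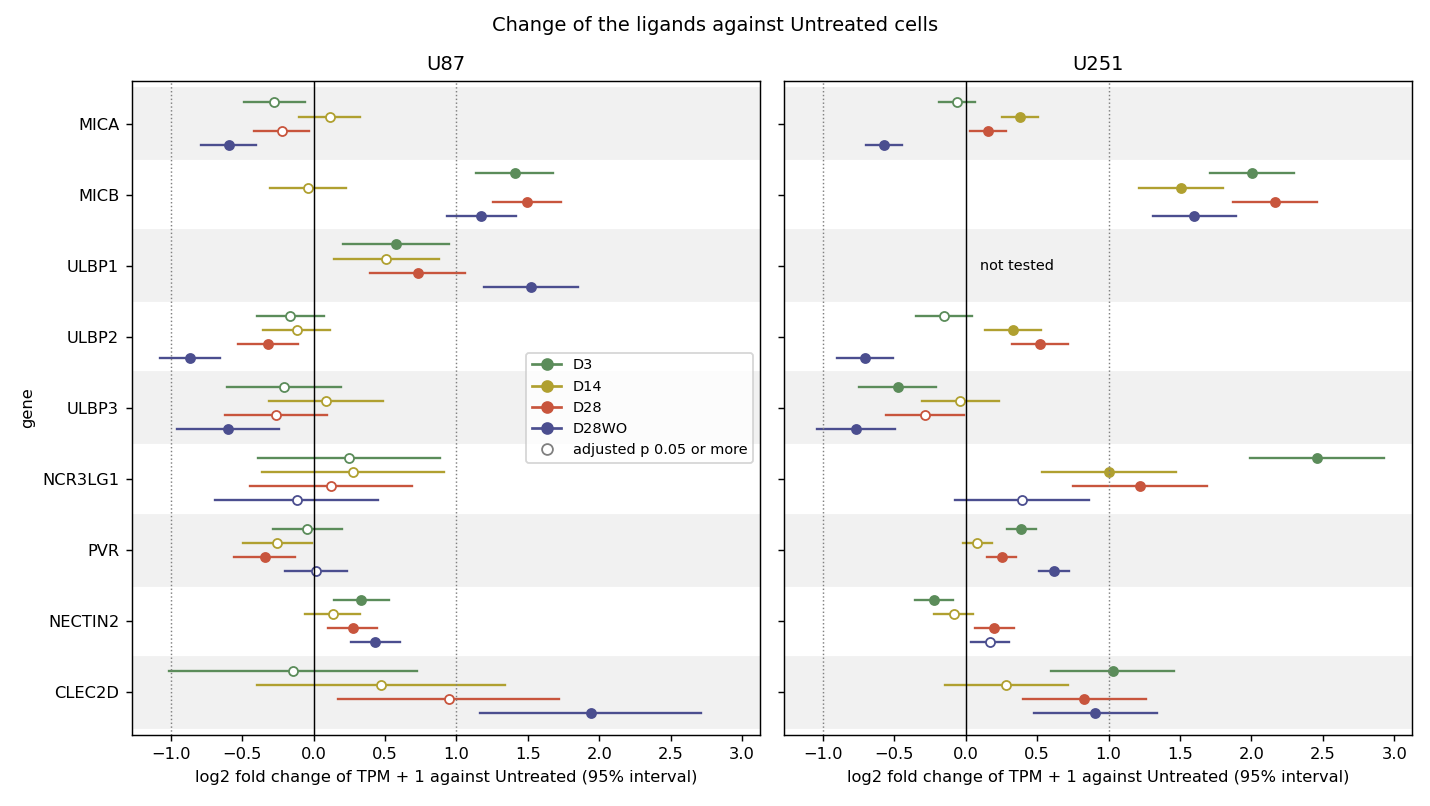
Log2 fold change of TPM + 1 against Untreated (horizontal axis, with 95% interval) for each ligand, in U87 (left) and U251 (right), coloured by group, with filled points at an adjusted p under 0.05 and dotted lines at -1 and 1. MICB lies beyond 1 in every group but U87 D14, MICA, ULBP2 and ULBP3 lie below 0 at D28WO in both lines, and NCR3LG1 has filled points in U251 and none in U87.

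MICB (chr6:31494881-31511124, plus strand, GENCODE 44) had the largest rise among the 4 NKG2D ligands tested in both lines. In U87 its level was 20.1, 15.7 and 17.0 TPM in Untreated, 48.3 and 47.9 TPM at D3, and 16.8 and 17.2 TPM at D14. It was 54.9, 51.0 and 47.6 TPM at D28 and 39.7, 37.9 and 45.1 TPM at D28WO. The D14 libraries thus lay inside the Untreated range and those of the other groups above it without overlap. The log2FC was 1.41 at D3 (SE 0.122, adjusted p = 1.66e-05), 1.49 at D28 (SE 0.109, adjusted p = 2.81e-06) and 1.18 at D28WO (SE 0.109, adjusted p = 9.39e-06). At D14 it was -0.04, with a 95% interval of -0.31 to 0.23, and D14 lay below D3 (log2FC -1.45, adjusted p = 5.82e-05) and below D28.

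In U251, MICB was at 11.3, 13.6 and 10.0 TPM in Untreated and at 58.2, 50.7 and 40.6 TPM at D3. It was 33.8, 33.3 and 37.4 TPM at D14, 55.7, 57.0 and 53.7 TPM at D28, and 36.3, 32.9 and 42.8 TPM at D28WO. All treated libraries lay above all Untreated libraries. The log2FC was 2.00 at D3 (adjusted p = 6.69e-08), 1.51 at D14 (adjusted p = 4.65e-06), 2.17 at D28 (adjusted p = 2.69e-08) and 1.601 at D28WO (adjusted p = 9.92e-07), each with an SE of 0.136. The D14 level was below that of D3 (log2FC -0.49, adjusted p = 0.0166, but 0.0759 without D3 replicate 1, 0.0505 without D14 replicate 1 and 0.0547 without D14 replicate 2), the D28 level above that of D14 (0.66, adjusted p = 0.00349), and the washout level below that of D28 (-0.57, adjusted p = 0.00666). The washout did not differ detectably from D14 (0.09, 95% interval -0.20 to 0.39). The washout difference from D28 was -0.32 in U87 (95% interval -0.56 to -0.08, adjusted p = 0.0648). MICB-DT, a gene on the other strand that overlaps MICB, was listed at 0.668 ± 0.316 TPM in Untreated and 10.9 ± 1.91 TPM at D3 of U251. Its reads and those of MICB cannot be told apart where counting did not use strand, which the sources used here do not state.

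MICA (chr6:31399784-31415315, plus strand) kept a higher level than MICB in all groups but changed less, and it was lower after the washout in both lines. In U87 it was at 97.5, 97.9 and 77.8 TPM in Untreated, at 73.6 and 75.8 TPM at D3, and at 97.5 and 98.5 TPM at D14. It was 79.2, 79.7 and 73.8 TPM at D28 and 60.3, 57.3 and 61.7 TPM at D28WO. The 2 D3 libraries lay under all Untreated libraries, those of D28 overlapped with the lowest of them, and those of D28WO were lower than every library of the other groups. The log2FC was -0.59 at D28WO (SE 0.0882, adjusted p = 0.000262), while -0.27 at D3 (adjusted p = 0.0779) and -0.22 at D28 (adjusted p = 0.0906) missed the limit. D28WO also lay below D28 (log2FC -0.37, adjusted p = 0.0132, or 0.0557 without D28WO replicate 2).

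In U251, MICA was at 110.2, 115 and 113 TPM in Untreated, at 111, 106 and 107 TPM at D3, and at 138, 149 and 155 TPM at D14. It was 133, 119.9 and 124 TPM at D28 and 74.8, 72.9 and 79.2 TPM at D28WO. The libraries of D14 and D28 were all above Untreated, and those of D28WO were all below. MICA rose at D14 (log2FC 0.38, 0.29 relative to all genes, SE 0.0581, adjusted p = 0.000404) and fell at D28WO (-0.57, adjusted p = 5.78e-06). The D28 value (0.15, adjusted p = 0.0475) was -0.01 relative to the median of all genes, and with median-ratio size factors it was 0.03 (adjusted p = 0.728). Leaving out any 1 of several libraries, the Untreated ones among them, also ended that call. From D28 to D28WO the difference was -0.72 (adjusted p = 1.07e-06).

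The ratio of MICA to MICB within a library does not depend on scaling between libraries. In U87 it was 4.58 to 6.25 in Untreated, 1.52 to 1.58 at D3, 5.74 to 5.79 at D14, 1.44 to 1.56 at D28 and 1.37 to 1.52 at D28WO. In U251 it was 8.45 to 11.2 in Untreated, 1.91 to 2.65 at D3, 4.09 to 4.48 at D14, 2.10 to 2.39 at D28 and 1.85 to 2.21 at D28WO. Thus MICB approached MICA in abundance at D3, D28 and D28WO of both lines, and the U87 D14 libraries lay inside the Untreated range. ENSG00000288587 overlaps MICA on the same strand. MICA and MICB also share long stretches of sequence, so reads could be split between them in a way that the sources used here do not describe.

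ULBP1 (chr6:149963943-149973715, plus strand) encodes a lipid-anchored NKG2D ligand and passed the limit on low values in U87 only. Its U87 level was 16.4, 16.1 and 11.97 TPM in Untreated, 22.1 and 22.6 TPM at D3, and 24.0 and 19.0 TPM at D14. It was 25.8, 21.0 and 28.8 TPM at D28 and 44.9, 46.2 and 41.2 TPM at D28WO. All treated libraries were above Untreated, and the washout libraries were above all others. The D3 value rests on single libraries, with an adjusted p of 0.155 without D3 replicate 2, 0.14 without D3 replicate 3 and 0.11 without Untreated replicate 3. The log2FC was 0.58 at D3 (adjusted p = 0.0384), 0.51 at D14 (adjusted p = 0.102), 0.73 at D28 (adjusted p = 0.00586) and 1.52 at D28WO (SE 0.151, adjusted p = 1.49e-05). The D28WO level was also higher than that of D28 (log2FC 0.79, adjusted p = 0.00411). Quantile normalization took the D3 value to 0.23 (adjusted p = 0.427) and the D28 value to 0.38 (adjusted p = 0.108). The U251 values were 0.242 to 0.521 TPM over all 15 libraries.

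ULBP2 (chr6:149942014-149949235, plus strand) fell after the washout in both lines and had opposite signs in them at D28, a difference that was not tested. Its U87 libraries were at 56.2, 51.1 and 45.5 TPM in Untreated, 44.8 and 45.6 TPM at D3, 48.2 and 45.4 TPM at D14, 42.9, 38.2 and 40.4 TPM at D28 and 28.7, 25.4 and 28.4 TPM at D28WO. Its U251 libraries were at 46.9, 52.1 and 44.1 TPM in Untreated, 42.8, 43.8 and 41.4 TPM at D3, 56.8, 59.4 and 64.4 TPM at D14, 64.9, 66.3 and 74.7 TPM at D28 and 28.3, 32.3 and 26.2 TPM at D28WO. In both lines the washout libraries were lower than all others. At D28 the U87 libraries lay below Untreated (log2FC -0.32, -0.51 relative to all genes, SE 0.0957, adjusted p = 0.0314) and the U251 libraries above it (0.52, SE 0.0911, adjusted p = 0.000454), as they were at D14 of U251 (0.33, 0.23 relative to all genes, adjusted p = 0.0196, but 0.0684 after quantile and 0.0882 after median-ratio scaling). The U87 value lost its call without Untreated replicate 1 (-0.25, adjusted p = 0.113), Untreated replicate 2, D28 replicate 2 or D28 replicate 3, and the D14 value of U251 did without Untreated replicate 1, Untreated replicate 3 or D14 replicate 3. At D28WO the log2FC was -0.86 in U87 (adjusted p = 3.26e-05) and -0.70 in U251 (adjusted p = 5.26e-05). Against D28 it was -0.54 in U87 (adjusted p = 0.00271) and -1.22 in U251 (adjusted p = 5.93e-07). ULBP2 is nearly identical to its neighbours RAET1G and RAET1L, so its reads may be shared with them.

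ULBP3 (chr6:150061053-150069121, minus strand) likewise fell after the washout. The U87 values were 24.1, 16.4 and 16.7 TPM in Untreated, 14.5 and 17.9 TPM at D3, 18.8 and 21.3 TPM at D14, 15.4, 15.6 and 15.4 TPM at D28 and 10.5, 12.8 and 12.9 TPM at D28WO. The U251 values were 29.3, 25.9 and 25.1 TPM in Untreated, 18.1, 18.0 and 20.7 TPM at D3, 28.1, 27.7 and 22.6 TPM at D14, 21.0, 20.3 and 24.0 TPM at D28 and 18.1, 13.9 and 14.2 TPM at D28WO. The washout libraries of U87 were lower than all others of that line, whereas those of U251 overlapped with D3. The log2FC at D28WO was -0.60 in U87 (SE 0.163, adjusted p = 0.0113) and -0.77 in U251 (SE 0.126, adjusted p = 0.000418). Without D28WO replicate 1 the U87 value was -0.51 (adjusted p = 0.0504). ULBP3 was also lower at D3 in U251 (-0.48, adjusted p = 0.00783).

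**Figure D3:**
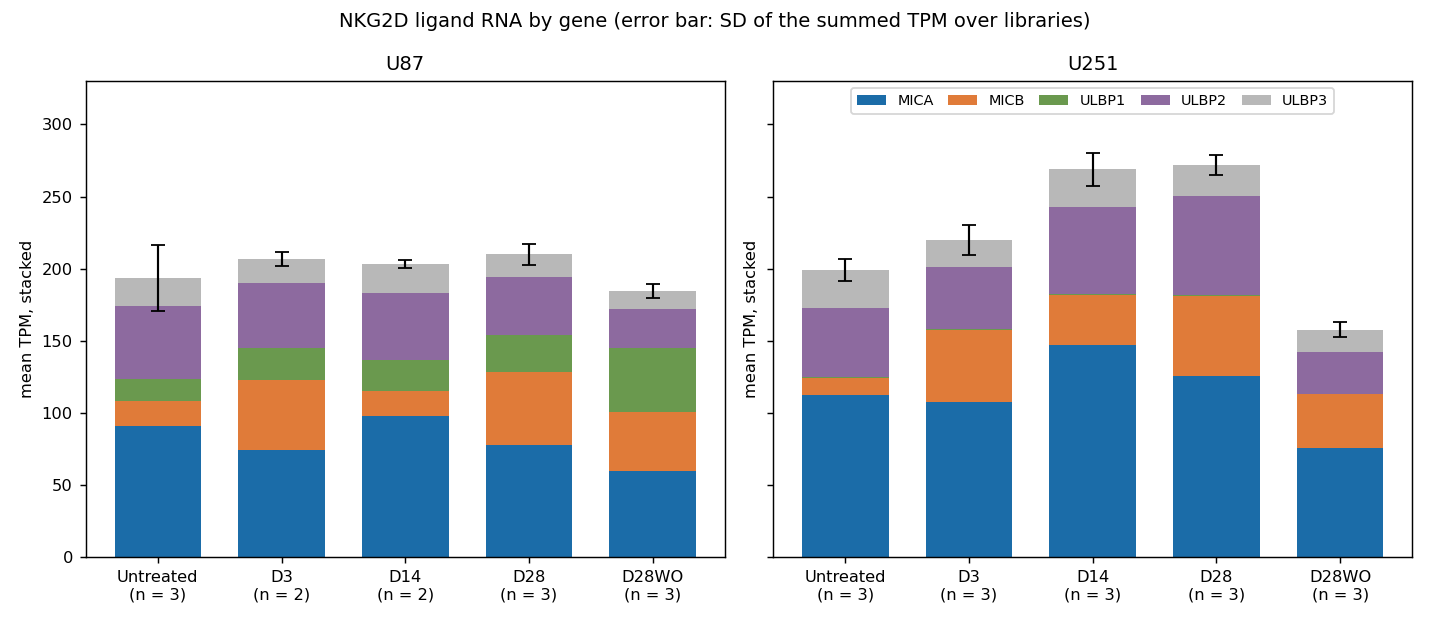
Mean TPM of the 5 NKG2D ligands among the 9 genes stacked by group for U87 (left) and U251 (right), with the SD of the summed TPM over libraries as the error bar. The share of MICB grows at D3, D28 and D28WO in both lines, and the U251 total is lowest at D28WO.

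Summed over the 5 NKG2D ligands among the 9 genes, RNA stayed near its Untreated amount in U87 while its makeup shifted. The other NKG2D ligands RAET1E, RAET1G and RAET1L are left out of this sum and of the shares. RAET1E and RAET1G were at 26.3 and 28.4 TPM in Untreated U87 cells. The sum was 194 ± 22.9 TPM in Untreated, 207 ± 4.65 TPM (n = 2) at D3, 203 ± 2.82 TPM (n = 2) at D14, 209.9 ± 7.11 TPM at D28 and 184 ± 4.85 TPM at D28WO, with overlap of every treated group with Untreated. The share of MICB was 9.12% in Untreated, 8.36% at D14 and 22.2% to 24.4% in the other groups. In U251 the sum was 199 ± 7.46 TPM in Untreated, 219.8 ± 10.1 TPM at D3, 269 ± 11.5 TPM at D14, 272 ± 7.03 TPM at D28 and 158 ± 5.29 TPM at D28WO. There the sums of D3, D14 and D28 lay above all Untreated libraries and those of D28WO below them. The share of MICB in U251 was 5.83% in Untreated and 12.9% at D14, against 22.6% at D3, 20.4% at D28 and 23.6% at D28WO.

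NCR3LG1 (chr11:17351800-17377341, plus strand) encodes B7-H6, a ligand of NKp30 that few healthy tissues display. In U251 it was at 1.01, 0.784 and 0.448 TPM in Untreated, at 11.1, 7.40 and 7.47 TPM at D3, and at 2.10, 2.44 and 2.91 TPM at D14. It was 3.64, 3.00 and 2.54 TPM at D28 and 1.32, 1.22 and 1.28 TPM at D28WO. No library of a treated group overlapped with Untreated, and those of D3 were above all others. The log2FC was 2.46 at D3 (SE 0.218, adjusted p = 9.16e-07), 1.00 at D14 (adjusted p = 0.00509), 1.22 at D28 (adjusted p = 0.00051) and 0.39 at D28WO (95% interval -0.08 to 0.86, adjusted p = 0.218). With quantile normalization the D14 and D28 values were 0.68 and 0.66, and with median-ratio size factors 0.95 and 1.15. They kept their calls, but only the last lay past an absolute log2FC of 1. On the TPM scale the D3 mean was 11.6 times that of Untreated, a larger ratio than the log2FC gives because the added 1 TPM weighs on low values. NCR3LG1 was lower at D14 than at D3 (log2FC -1.46, adjusted p = 0.000264) and lower at D28WO than at D28 (-0.83, adjusted p = 0.0113, but -0.35 with quantile normalization, adjusted p = 0.247).

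In U87, NCR3LG1 was at 4.71 to 5.13 TPM in Untreated, 5.33 and 6.81 TPM at D3, 5.28 and 7.20 TPM at D14, 3.63 to 8.11 TPM at D28 and 3.42 to 5.13 TPM at D28WO. No comparison with Untreated passed the test, with intervals from -0.69 to 0.92 over the 4 groups. The U87 direction depended on scaling, and with quantile normalization NCR3LG1 was called lower at D28WO (log2FC -0.70, against -0.12 without it). KCNJ11, which overlaps NCR3LG1 on the other strand, was at 1.37 ± 1.16 TPM in Untreated and 1.65 ± 0.483 TPM at D3 of U251. It was at 0.702 ± 0.504 TPM at D14, 0.132 ± 0.0657 TPM at D28 and 2.58 ± 1.26 TPM at D28WO of that line.

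PVR (chr19:44643798-44666162, plus strand) encodes CD155, and its D28 change was negative in U87 and positive in U251, a difference that was not tested. In U87 the libraries were at 129, 109 and 126 TPM in Untreated, 109 and 126 TPM at D3, 107 and 96.1 TPM at D14, 89.4, 94.2 and 103 TPM at D28 and 129.7, 129.7 and 109 TPM at D28WO. The D14 and D28 libraries lay below Untreated and the others overlapped with it. PVR fell at D28 (log2FC -0.34, -0.53 relative to all genes, SE 0.0982, adjusted p = 0.0268) and was higher at D28WO than at D28 (0.36, adjusted p = 0.0249, or 0.121 with median-ratio size factors). That second call was also lost without D28 replicate 1, D28 replicate 2, D28WO replicate 1 or D28WO replicate 2 (adjusted p of 0.0662 to 0.0987). The fall at D28 was not called without Untreated replicate 1 or 3 or D28 replicate 1 or 2 (adjusted p of 0.0719 to 0.0867). In U251 the libraries were at 150.3, 145 and 150.4 TPM in Untreated, 203, 194 and 188 TPM at D3, 155, 152 and 164 TPM at D14, 178, 178 and 175 TPM at D28 and 223, 239 and 224 TPM at D28WO. Every treated U251 library was above Untreated, and those of D28WO were above all others. The log2FC was 0.39 at D3 (0.26 relative to all genes, SE 0.0474, adjusted p = 1.91e-05), 0.25 at D28 (adjusted p = 0.000802) and 0.62 at D28WO (adjusted p = 3.5e-07), and D28WO exceeded D28 by 0.37 (adjusted p = 6.72e-05). The D28 value was 0.09 relative to all genes and 0.13 with median-ratio size factors (adjusted p = 0.0707). CEACAM19, which overlaps PVR on the same strand, was at 20.01 ± 5.29 TPM in Untreated, 63.9 ± 1.77 TPM at D3, 22.1 ± 3.80 TPM at D14, 48.4 ± 5.36 TPM at D28 and 40.5 ± 5.84 TPM at D28WO of U251, and its part in the PVR counts was not tested.

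NECTIN2 (chr19:44846175-44889223, plus strand) encodes CD112 and changed by small amounts. Its levels in U87 were 119.3, 132 and 108 TPM in Untreated, 153 and 148 TPM at D3, 135 and 127 TPM at D14, 145, 136 and 154 TPM at D28 and 165, 153 and 166 TPM at D28WO. The libraries of D3, D28 and D28WO were above Untreated without overlap. The log2FC was 0.33 at D3 (SE 0.0878, adjusted p = 0.0248), 0.27 at D28 (adjusted p = 0.0267) and 0.43 at D28WO (adjusted p = 0.00104). Relative to the median of all genes these were 0.14, 0.09 and 0.18, and none passed the test with median-ratio size factors (adjusted p = 0.321, 0.493 and 0.0723). The D3 and D28 calls were also lost without Untreated replicate 1 or Untreated replicate 3. In U251 NECTIN2 was at 179.9, 172 and 186 TPM in Untreated, 139, 159 and 164 TPM at D3, 168, 167 and 173 TPM at D14, 196, 215 and 208 TPM at D28 and 194, 199.9 and 212 TPM at D28WO. The D3 libraries were below Untreated (log2FC -0.22, -0.35 relative to all genes, adjusted p = 0.0116) and the D28 libraries above it (0.20, adjusted p = 0.0209), the latter by 0.04 relative to the median of all genes. The D3 call was lost without D3 replicate 1 (-0.15, adjusted p = 0.055), and the D28 call without Untreated replicate 2, D28 replicate 2 or D28 replicate 3. The D28WO value of 0.17 in U251 had an adjusted p of 0.0622. The sum of PVR and NECTIN2 in U251 was 328 ± 9.75 TPM in Untreated, 349 ± 5.87 TPM at D3, 326 ± 9.36 TPM at D14, 383 ± 9.08 TPM at D28 and 431 ± 12.1 TPM at D28WO, and the D14 libraries overlapped with Untreated. In U87 it was 241 ± 7.32 TPM in Untreated, 268 ± 8.66 TPM at D3, 233 ± 13.1 TPM at D14, 240.2 ± 14.4 TPM at D28 and 284 ± 9.66 TPM at D28WO. The D3 and D28WO sums of U87 lay above Untreated, by less than the rise in the median of all genes there (0.20 and 0.25 on the log2 scale).

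CLEC2D (chr12:9664969-9699553, plus strand) encodes LLT1, a ligand of an inhibitory receptor, and rose at D28WO in both lines, with a wide spread between libraries. CLEC2D in U87 was at 6.07, 8.10 and 14.7 TPM in Untreated, 9.21 and 7.10 TPM at D3, 14.2 and 11.7 TPM at D14, 14.2, 32.1 and 13.4 TPM at D28 and 47.8, 27.3 and 40.5 TPM at D28WO. The washout libraries all lay above Untreated, 1 of the D28 libraries did and reached above the lowest of the washout, and the other groups overlapped with Untreated. The log2FC was 1.94 at D28WO (SE 0.354, adjusted p = 0.00105) and 0.95 at D28 (95% interval 0.17 to 1.72, adjusted p = 0.0744). CLEC2D in U251 was at 12.2, 6.97 and 8.63 TPM in Untreated, 15.6, 18.1 and 26.1 TPM at D3, 10.2, 11.8 and 11.8 TPM at D14, 19.96, 15.8 and 15.1 TPM at D28 and 17.8, 18.9 and 16.8 TPM at D28WO. The libraries of D3, D28 and D28WO were above Untreated, and those of D14 overlapped with it. The log2FC was 1.03 at D3 (SE 0.2001, adjusted p = 0.000944), 0.83 at D28 (adjusted p = 0.00452) and 0.91 at D28WO (adjusted p = 0.00368), and D14 lay below D3 (-0.75, adjusted p = 0.0142). With quantile normalization the D28 value of U251 was 0.52 (adjusted p = 0.0556), and the call of D14 below D3 was lost without D3 replicate 3 (-0.54, adjusted p = 0.064) or D14 replicate 1 (adjusted p = 0.0516). The pseudogene NPM1P7, within the CLEC2D span on the same strand, was at a group mean of 0.711 to 3.63 TPM in both lines.

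The pattern over libraries was described by Pearson's r of log2(TPM + 1) with each of 20473 genes tested in both lines, ranked by the smaller of the 2 values (13 libraries in U87, 15 in U251). These libraries share their treatment groups, so r reflects differences between groups as well as within them. The genes most like MICB were CMPK2 (0.962), RSAD2 (0.958) and HLA-DPB1 (0.955). Those most like MICA were PHF19 (0.913), CDCA4 (0.911) and KIF11 (0.906), and for ULBP2 they were ALG1 (0.936), PLPP4 (0.92) and NUDT1 (0.918). For ULBP3 they included B3GLCT (0.869) and TLR6 (0.869). PVR was most like FAM204A (0.838), NQO1 (0.806) and CNBP (0.804), and NECTIN2 was most like IGSF8 (0.892), ENSG00000290793 (0.824) and TLNRD1 (0.804). CLEC2D was most like MPV17L (0.839), ENSG00000258521 (0.834) and TNKS2 (0.827).

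Of 11 other genes listed as ligands of inhibitory NK receptors, most rose in both lines, except at D14 in U87. Lists are set beside the shares of all genes called in the order D3, D14, D28, D28WO, which were 12.4%, 4.14%, 17.2% and 28.6% higher and 4.28%, 1.02%, 6.55% and 13.4% lower in U87, and 24.9%, 13.8%, 25.9% and 14.3% higher and 16%, 7.31%, 14.7% and 13.4% lower in U251. Among 11 listed genes, 8 were higher at D3, 8 at D28 and 9 at D28WO in U87, with 0, 2 and 0 lower, and 0 higher and 2 lower at D14. In U251, 8 of 11 were higher and 1 lower at each of the 4 times. In the order D3, D14, D28, D28WO, the list median log2FC was 0.77, -0.17, 0.72 and 0.94 in U87 and 1.41, 0.60, 1.43 and 1.56 in U251, and median-ratio size factors left 5, 0, 6 and 9 higher in U87 and 8 at each time in U251. HLA-F, a nonclassical class I molecule, went from 63.1 ± 15.03 TPM in Untreated to 258 ± 12.4 TPM at D28WO in U87 and from 204 ± 25.1 TPM to 673 ± 21.1 TPM in U251. HLA-B, which carries ligands of killer-cell immunoglobulin-like receptors, rose from 454 ± 31.3 TPM to 1629 ± 73.1 TPM in U251 at D28WO (log2FC 1.84). LGALS9, encoding galectin-9, rose from 3.29 ± 1.37 TPM to 98.1 ± 10.999 TPM at D28 in U251 (log2FC 4.58) and from 0.0427 ± 0.074 TPM to 22.2 ± 4.17 TPM in U87 (4.46). In U87 it met the limit of 0.5 TPM, and so was tested, only through treated groups where it was high. CEACAM1, which binds itself on lymphocytes, rose to 93.4 ± 3.23 TPM in U251 and 21.0 ± 10.99 TPM in U87 at D28 (log2FC 4.21 and 4.02).

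**Figure D4:**
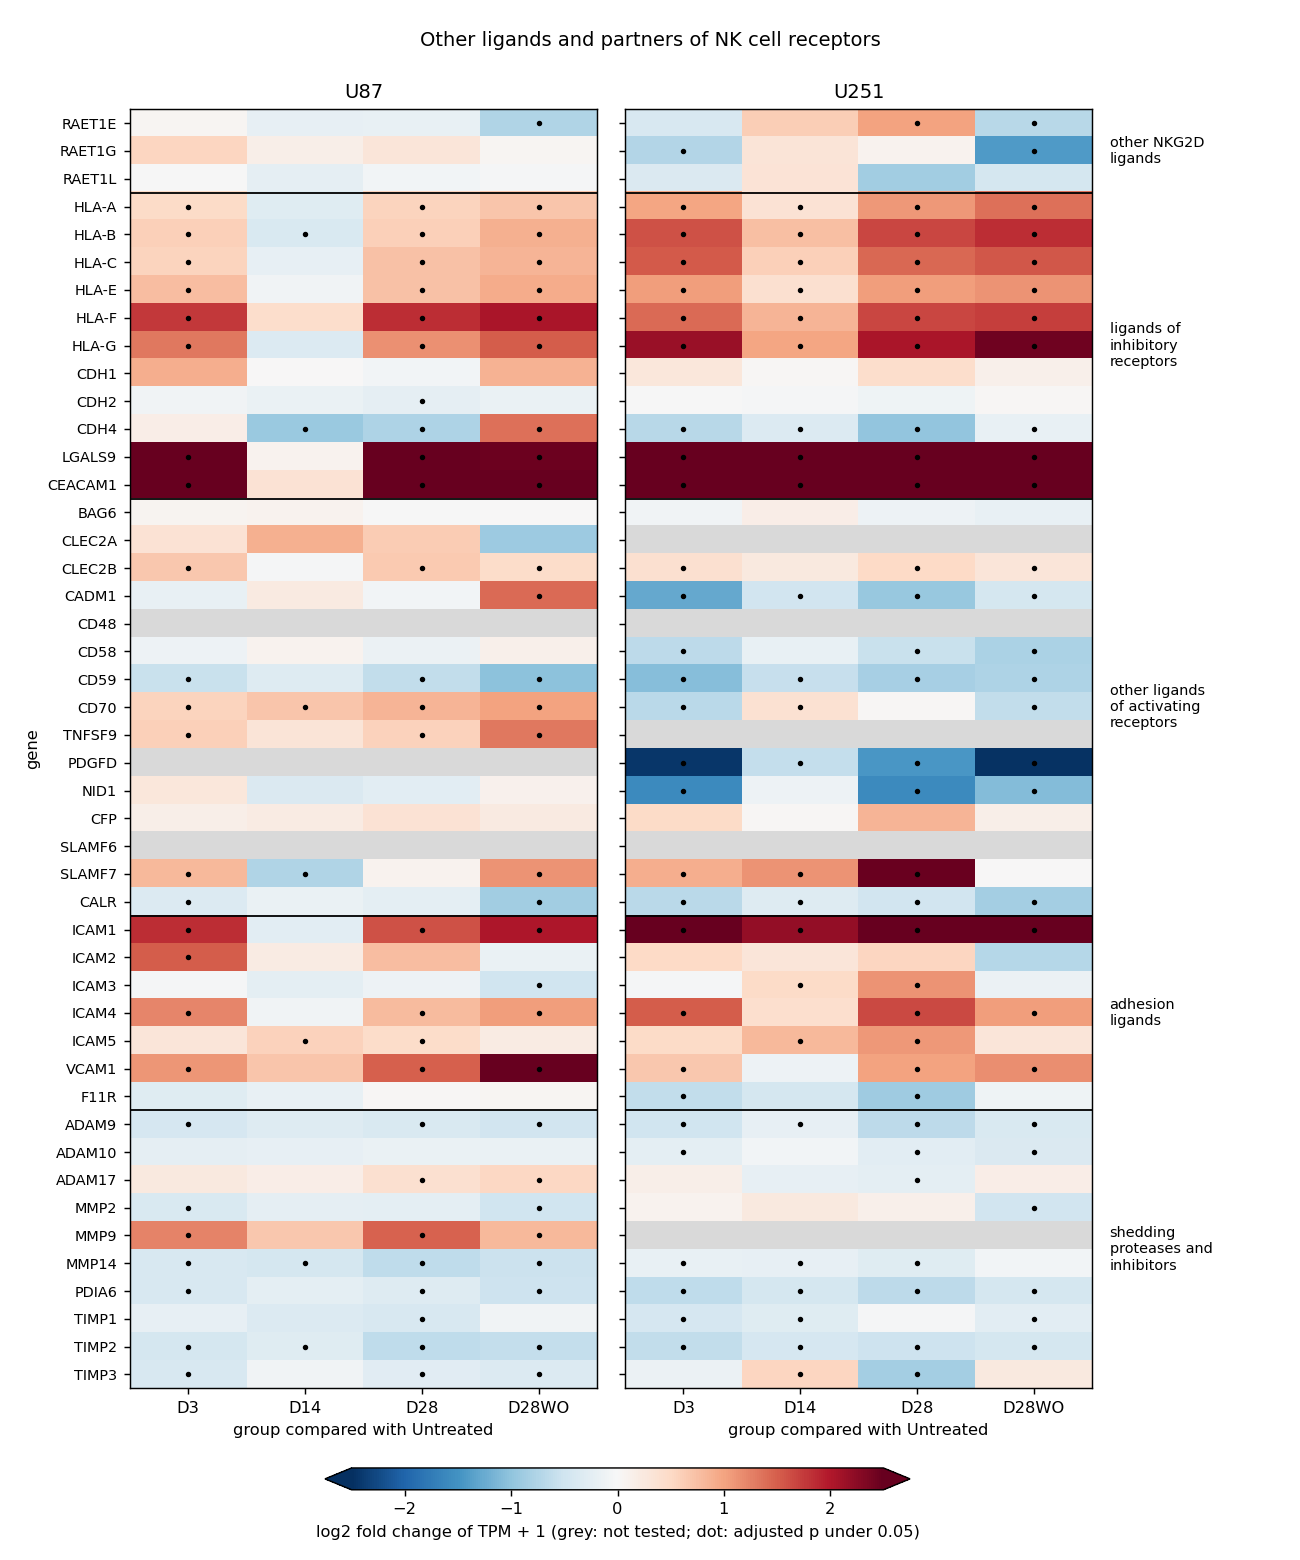
Log2 fold change of TPM + 1 against Untreated for other ligands and partners of NK cell receptors (rows) by group (columns) in U87 and U251, coloured from blue (lower) to red (higher) with values beyond 2.5 at the end colours, dots at an adjusted p under 0.05 and grey for genes not tested. HLA class I genes, LGALS9, CEACAM1 and ICAM1 are red with dots at D3, D28 and D28WO in both lines, and at D14 of U87 none of them is called higher.

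The list of other NKG2D ligands held RAET1E, RAET1G and RAET1L, and their calls at D28WO were all lower. In U87, 1 of 3 was lower at D28WO (RAET1E, log2FC -0.75), and limma called 0 in the other groups, where 1 had an unadjusted p under 0.05 (higher, at D3). In U251, 1 of 3 was lower at D3, 1 higher at D28 and 2 lower at D28WO, where RAET1G, named like RAET1E after its values were seen, was at 3.60 TPM beside 11.2 TPM in Untreated (log2FC -1.42). With quantile normalization 2 were lower at D3 of U251, and 0 were higher and 1 lower at D28. Median-ratio size factors gave 1 higher and 1 lower at D28. Of 15 other ligands of activating receptors, 12 were tested in U87, with 4, 1, 3 and 5 higher and 2, 1, 1 and 2 lower in the same order of groups. In U251, 11 were tested, with 2, 2, 2 and 1 higher and 7, 4, 6 and 7 lower, and the list's median log2FC was -0.67, -0.13, -0.48 and -0.61 in that order. With median-ratio size factors the counts at D28 of U87 were 2 higher and 3 lower. PDGFD, a growth factor bound by NKp44, fell in U251 from 53.4 TPM to 9.07 TPM at D3 and 8.80 TPM at D28WO (log2FC -2.44 and -2.48). SLAMF7, a self-binding receptor of lymphocytes, rose in U251 from 0.126 TPM to 5.24 TPM at D28 (log2FC 2.48). It met the limit of 0.5 TPM there only through treated groups where it was high. CADM1, the ligand of CRTAM, rose in U87 at D28WO, from 22.2 to 61.2 TPM (log2FC 1.42), and was lower in U251 at every time, at 101 to 181 TPM beside 245 TPM in Untreated, where it was named after its values were seen.

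Among 6 nectin and nectin-like genes, adhesion molecules of the wider family of PVR and NECTIN2, 5 were tested in each line. The synaptic adhesion molecule CADM3 was higher at all 4 times in U87 and was the only one called higher there, with 1 gene lower at D28WO, but with quantile normalization 0 of the 5 were higher at D14 or D28WO. In U251, 1, 1, 1 and 0 were higher and 2, 1, 2 and 2 lower. At D28 CADM3 was at 16.7 TPM in U87 and 14.5 TPM in U251, beside 0.299 and 0.276 TPM in Untreated (log2FC 3.73 and 3.61). In both lines it met the limit of 0.5 TPM only through treated groups where it was high. Of 7 adhesion ligands of the integrins LFA-1 and VLA-4, through which NK cells attach, 4, 1, 4 and 3 were higher and 0, 0, 0 and 1 lower in U87, and 3, 3, 5 and 3 were higher and 1, 0, 1 and 0 lower in U251. With quantile normalization 1, 1, 3 and 2 were higher in U87, and 1 was higher and 1 lower at D14 of U251. ICAM1 rose from 40.9 to 149 TPM at D3 and 168 TPM at D28WO in U87, and from 6.74 to 154 TPM at D3 and 113 TPM at D28WO in U251 (log2FC 1.85, 2.02, 4.34 and 3.90). VCAM1 rose in U87 from 0.547 TPM to 8.63 TPM at D28WO (log2FC 2.67).

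Proteases, their inhibitors and a helper (PDIA6) that act in the shedding of MICA, MICB and ULBP proteins were lower more often than higher in both lines. Of 10 tested in U87, 6, 2, 6 and 6 were lower and 1, 0, 2 and 2 higher over the same groups, and of 9 tested in U251, 6, 5, 7 and 6 were lower and 0, 1, 0 and 0 higher. The proteases ADAM9 and MMP14 and the inhibitor TIMP2, all 3 named after their values were seen, were among the lower genes at D3 and D28 of both lines. ADAM17, a main sheddase also named after its values were seen, was higher in U87 at D28 (log2FC 0.40, adjusted p = 0.0147) and D28WO (0.53, adjusted p = 0.00136) and lower in U251 at D28 (-0.25, adjusted p = 0.0244). The protease MMP9 rose in U87, from 0.333 TPM in Untreated to 2.76 TPM at D28 (log2FC 1.48), the one change of this list past an absolute log2FC of 1 at that time. MMP9 met the limit of 0.5 TPM in U87 only through treated groups where it was high. With quantile normalization the U87 counts fell to 3, 1, 4 and 5 lower. Of 10 regulators of NKG2D ligand genes in DNA damage and stress, 1, 2, 3 and 3 were higher and 0, 0, 0 and 2 lower in U87, near the shares of all genes at D3 and D28WO, and 5, 4, 6 and 4 were higher and 1, 0, 0 and 3 lower in U251. With median-ratio size factors these became 0, 0, 1 and 1 higher and 1, 0, 1 and 3 lower in U87, and 4, 2, 4 and 4 higher in U251. E2F1, a cell-cycle factor named after its values were seen, was lower at D28WO in both lines (log2FC -1.24 and -1.11), from 92.9 to 39.5 TPM in U87 and from 52.4 to 23.8 TPM in U251. Of 4 death receptors, 0 passed the test in U87 at D3, D14 or D28, with 2, 0 and 2 at an unadjusted p under 0.05, and 1 was higher and 1 lower at D28WO. In U251, 3 were tested, with 0, 0, 1 and 1 higher and 1, 0, 1 and 0 lower.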

How the data were processed

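RNA-seq was made from U87 and U251 cells by the authors, who per the labels trimmed reads with Trim Galore, aligned them with STAR to GRCh38 and counted genes with featureCounts. The use of strand and the computation of TPM are not given in the sources used here. The deposited values are TPM, 1 table per line, scaled to the same sum in each library, so that depth is lost. The tables were scaled separately and the lines were not tested against each other. In the U87 table, 2 columns of the same name were left out. Genes with a mean under 0.5 TPM in a line were dropped, and log2(TPM + 1) was fitted with limma 3.58.1 (R 4.3.3), with the 5 groups of a line in 1 model, an intensity trend and Benjamini-Hochberg adjustment over 22918 genes in U87 and 23667 in U251. Genes were called at an adjusted p under 0.05, and past both limits with an absolute log2 fold change over 1. The script was tested on simulated data. Promoters are from RefSeq (GRCh38.p14; 9 of 9 genes matched), were aligned with Biopython 1.88, and gene positions are from GENCODE 44. All 9 members are described. From the companion lists, genes past both limits in a comparison with Untreated were eligible, at most 20 per line by size, and others are marked. Members and lists were chosen with earlier results of these data known. Alternatives were another pseudocount, other filters, quantile and median-ratio scaling, 2-group fits, a replicate block, and leaving out single libraries or D14. Values of 2 other genes are not reported here.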

Additional observations from a re-analysis of the deposited data

Results flagged for a closer look

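Some ligands changed with opposite signs in the lines, every library of a group lying below its Untreated libraries in U87 and above them in U251, or the reverse. ULBP2 at D28 had a log2 fold change of -0.32 in U87 and 0.52 in U251. PVR had -0.25 in U87 and 0.081 in U251 at D14, neither past the test, and -0.34 and 0.25 at D28. NECTIN2 at D3 had 0.33 in U87 and -0.22 in U251. The difference between the lines was not tested for any of these, because the tables were scaled separately, and the U87 values at D3 and D14 rest on 2 libraries a group.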

How the results depend on the processing

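No called change of a ligand turned direction under any alternative run. Counts of ligands called in either direction, or past both limits, were taken again under each setting. Over settings other than leaving out a library, 119 of these repeats stayed within 1.5 times the reported count and 5 did not. By direction, median-ratio size factors took U87 D3 from 3 higher and 0 lower to 1 and 2, and U251 D28 from 7 and 0 to 4 and 1, and quantile normalization took U87 D3 to 2 and 2 and U87 D28 from 3 and 2 to 2 and 4. With only the 2 compared groups in the fit, 1 ligand in place of 3 was called in U87 at D3 and 2 in place of 5 at D28. Past both limits in U251, 1 in place of 2 remained at D14 with quantile normalization, 1 with median-ratio size factors, and 1 in place of 2 at D28 with quantile normalization. Each called change of a ligand was likewise repeated under these settings, and 529 repeats kept the call and 33 lost it. These are numbers of repeats rather than of changes, and a single change can appear in both. Leaving out 1 library at a time gave 1 to 3 called ligands in U87 at D3 and 2 to 5 at D28, and 1 to 2 past both limits in U87 at D28, in U251 at D14 and in U251 at D28WO, with the lone library of a group assumed to vary like those of the other groups. Among repeats of the called changes without 1 library, 977 kept the call and 77 lost it. Leaving out the D14 libraries, chosen after seeing the data, moved no count and ended no call. A replicate block ended 2 calls. These were NECTIN2 in U87 between D28WO and D14 (0.29, adjusted p = 0.0634) and MICA in U251 at D28 (0.15, adjusted p = 0.0586). Over all pairs of groups, libraries of the same number had deviations correlated by -0.058 to 0.0472 in U87 and -0.0375 to 0.048 in U251. D28 and D28WO were compared as unpaired, and whether their libraries of the same number share a culture was not tested. The cause of the changes of the ligands was not tested. The depth of each library is unknown, groups hold 2 or 3 libraries, and changes of low genes such as NCR3LG1 are understated by the pseudocount.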
